A study of Homo sapiens with 7 samples.

Results

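The enzymes described here convert steroid hormones and their precursors into each other. They are members of the HSD17B family, hydroxysteroid dehydrogenases that mostly act on the ketone or hydroxyl group of androgens and estrogens, together with the steroid reductases SRD5A1 and SRD5A3, the dehydrogenase HSD3B1 and the steroid sulfatase STS. The list holds 10 genes. A gene was read from a row of the expression table that names that gene alone, and by the rule the brightest such row over all 7 arrays would have been chosen by its mean. In these data 7 of the 10 genes had a row of their own, 1 row each, among 22011 rows and 14232 genes in all. SRD5A1 and HSD17B12 each stood in 1 row that names several genes, and SRD5A3 in none, so these 3 genes were not analysed here. The list was drawn up with earlier results of the same comparison known, so the values below describe these genes and their p-values are no independent support.

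The compared cells were CSC, the CD44+CD24- fraction of DU145 cells, on 4 arrays, and bulk DU145 cells on 3 arrays. DU145 is an androgen-independent prostate carcinoma line derived from a brain metastasis. By the methods, the sorted CSC were grown as floating spheroids without serum in medium with EGF, bFGF and insulin, and groups of spheroids were pooled for RNA, whereas DU145 cells grew with serum; the labels mention neither spheroids nor this medium. Sorting, attachment, serum and growth factors therefore cannot be told apart in this comparison, and the study describes degrading cells within the spheroids. The labels name no treatment or added hormone for either group. Whether the arrays of 1 group stem from separate cultures is not given in the sources. The methods state fewer replicates per condition than the 4 CSC arrays of the labels, all of which were used, and the p-values cover just the variation among these samples, possibly a technical one.

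In the prostate, testosterone and dihydrotestosterone are the active androgens, and their level inside a cell depends on enzymes that make or remove them. Circulating precursors reach the cell partly as sulfates, and STS frees them. HSD3B1 turns the precursor dehydroepiandrosterone into androstenedione. Enzymes outside the list, such as HSD17B3 and AKR1C3, reduce androstenedione to testosterone, and the steroid reductases make dihydrotestosterone. HSD17B6 can re-form dihydrotestosterone from androstanediol, whereas HSD17B2 turns testosterone and estradiol into weaker ketones. Several HSD17B enzymes work mainly on fatty acids in spite of their name.

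Values are log2 expression levels that the authors summarized over the probes of a gene, and their size depends on the probes, so levels were compared within a gene, apart from a rough scale of low levels taken from olfactory receptor genes. The array medians ran from 5.88 to 5.91 in CSC and from 5.77 to 5.89 in DU145 cells. Keratin 8 and keratin 18, filament proteins of simple epithelia, were at 8.15 or above on every CSC array and 7.95 or above on every DU145 array. Neither they nor keratin 19 passed the test. The epithelial markers EPCAM and CDH1 (E-cadherin) did, both higher in CSC. Their log2 fold changes were 1.92 and 3.32 (adjusted p = 0.00209 and 0.00285 by limma). CD44, an antigen of the sort, had log2 levels of 8.25, 7.60, 8.07 and 7.09 in CSC, against 8.79, 8.62 and 9.39 in DU145 cells. Every CSC array was thus below every DU145 array for the transcript of the antigen by which CSC were chosen as positive. The log2 fold change was -1.18 (adjusted p = 0.128 by limma), which did not pass. CD24, the antigen that the sorted cells should lack, had 9.09, 8.39, 8.55 and 8.11 in CSC, against 8.67, 8.78 and 9.35 in DU145 cells. Its transcript overlapped between the groups. The sort was made on surface protein, which the arrays did not measure. By quantitative PCR, the study found CD44 RNA in spheroids at a level like that of DU145 cells and CD24 RNA significantly lower. The leukocyte gene PTPRC was at 2.31 or below on every array. CD68, a lysosomal protein abundant in macrophages, had 9.10, 9.56, 9.88 and 8.95 in CSC, against 8.52, 8.09 and 8.79 in DU145 cells, so every CSC array was above every DU145 array (log2 fold change 0.91, adjusted p = 0.154 by limma), and its part in the results was not tested. None of the 4 endothelial, 6 fibroblast or 4 leukocyte markers measured passed the test.

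HSD17B6 was the member with the largest difference. This enzyme of the short-chain dehydrogenase superfamily oxidizes androstanediol to dihydrotestosterone. Its log2 level was 5.51, 5.43, 5.57 and 5.92 on CSC arrays 1 to 4, against 4.93, 4.71 and 3.86 on DU145 arrays 1 to 3. Every CSC array was above every DU145 array, with a gap of 0.50 between the lowest CSC and the highest DU145 array. The mean was 5.61 ± 0.21 (SD, n = 4) in CSC and 4.50 ± 0.56 (SD, n = 3) in DU145 cells. The log2 fold change, CSC minus DU145, was 1.11 (standard error 0.27, 95% interval 0.46 to 1.76), which is 2.16-fold. By limma, a linear model with a moderated spread, its p-value was 0.00549 before adjustment and 0.0987 after Benjamini-Hochberg adjustment over all rows, so HSD17B6 did not pass the adjusted limit of 0.05. The exact two-sided permutation p was 0.0286, the smallest that 7 arrays allow. Small differences can reach this value too, as the mineralocorticoid receptor NR3C2 did with a log2 fold change of 0.13.

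**Figure D1:**
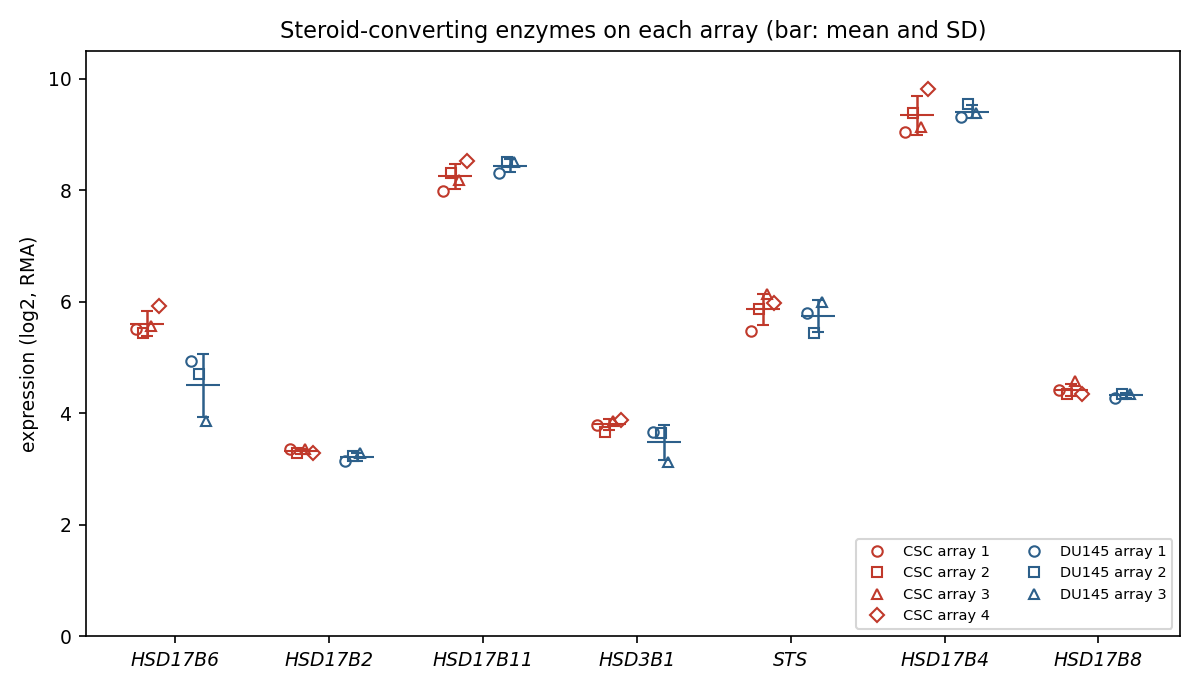
The log2 level (vertical axis, Robust Multichip Average) of the 7 measured steroid-converting enzymes is plotted for each array, CSC in red on the left and DU145 cells in blue on the right of each pair, with the mean and SD as bars. The groups are apart for HSD17B6, from 5.43 to 5.92 in CSC and from 3.86 to 4.93 in DU145 cells, and overlap or touch for the other genes.

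No member passed the adjusted p of 0.05 together with an absolute log2 fold change of 1, the limits named in the methods. By limma this was 0 of 7 members, where 1.30% of all rows passed, 0.722% higher and 0.577% lower in CSC. At an unadjusted p of 0.05 with the same fold limit, HSD17B6 was the 1 of 7 members past it, where 4.35% of rows were, 1.81% of rows in the higher direction. The methods' t-test, which they name for experiments other than the arrays, gave the same counts, 0 of 7 after adjustment and 1 of 7 before it. HSD17B6 was also the 1 member with every CSC array above every DU145 array, which held for 10.8% of all rows, and no member had every CSC array below, which held for 6.13%. The median log2 fold change was 0.10 over the 7 members, 0.08 over all rows and 0.10 over all genes. The mean was higher in CSC for 5 members and lower for 2, and without HSD17B6 the largest absolute log2 fold change was 0.32.

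The width of the HSD17B6 difference came mainly from the DU145 arrays. Their log2 levels spanned 1.07, and those of the CSC arrays 0.49. The SD of 0.56 among DU145 arrays was exceeded by only 7.62% of all rows, whereas 44.6% of rows had a larger SD among CSC arrays than the 0.21 of HSD17B6. DU145 array 3, at 3.86, was the low one. Without it the log2 fold change was 0.79 (adjusted p = 0.0909 by limma), below the fold limit. The same array held the lowest value of 16.5% of all rows, less often than DU145 arrays 1 and 2, with 23.3% and 16.8%. The CSC arrays held it in 8.62% to 12% of all rows. Among the rows with a mean up to the median, the share of DU145 array 3 was 23.8%. In such rows it was 9.89% to 12.1% for the CSC arrays and 13.6% and 15.5% for the other DU145 arrays. The part of DU145 array 3 in the HSD17B6 difference beyond the value without it was not tested.

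**Figure D2:**
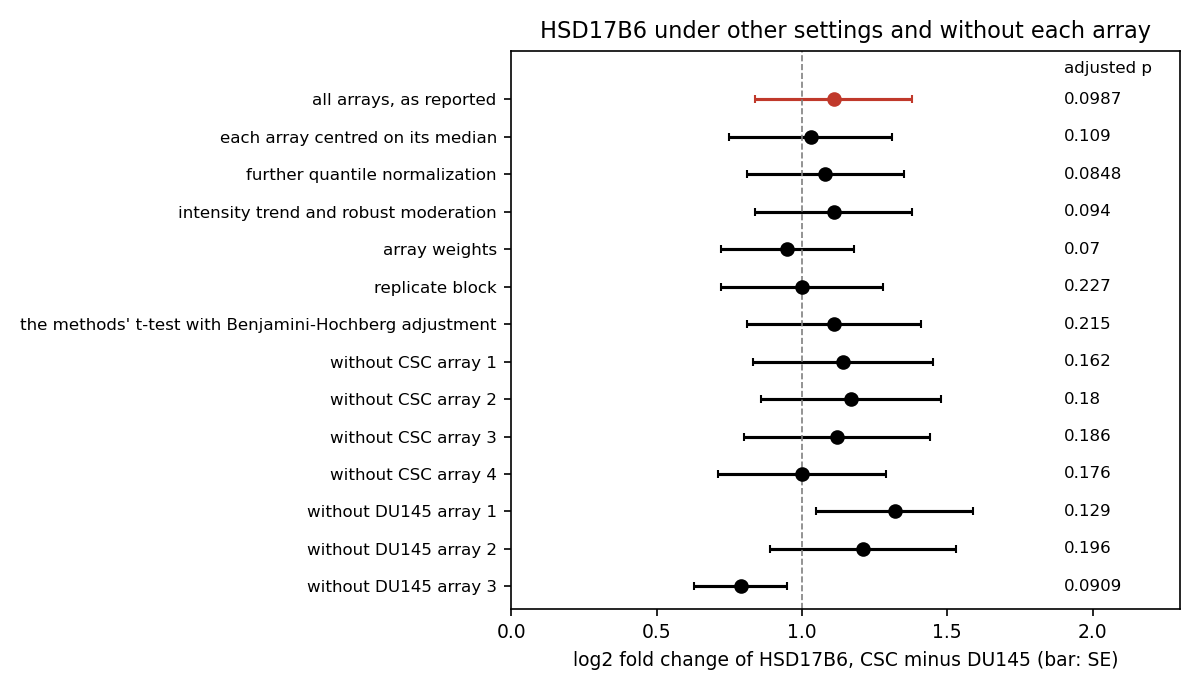
The log2 fold change of HSD17B6, CSC minus DU145 (horizontal axis, bar the standard error), is plotted for the reported fit in red and for 13 other settings in black, with the adjusted p at the right and the fold limit of 1 as a dashed line. The difference stays above 0 in each, from 0.79 without DU145 array 3 to 1.32 without DU145 array 1, and the adjusted p lies between 0.07 and 0.227.

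A scale for low levels was taken from 225 olfactory receptor genes, which are silent in most cells outside the nose. Probes differ between genes, so this is no detection call. In CSC, 2 of the 225 had a mean above that of HSD17B6, and in DU145 cells 30 had. The DU145 mean of HSD17B6, 4.50, was below 4.92, the level that 95% of these genes did not exceed. The DU145 side of HSD17B6 is thus a low signal, and the size of its fold is uncertain. For HSD17B2, 113 of the 225 were above its mean in CSC and 112 in DU145 cells. HSD3B1 had 78 above it in CSC and 94 in DU145 cells, and HSD17B8 had 32 and 34 above it in CSC and in DU145 cells. For HSD17B4 and HSD17B11 there were none in either group.

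HSD17B2 opposes the steps that raise active hormone, since it oxidizes testosterone to androstenedione and estradiol to estrone. On the log2 scale it had 3.35, 3.28, 3.35 and 3.28 in CSC, against 3.14, 3.24 and 3.28 in DU145 cells. All arrays lay within 0.21 of each other and the groups touched, 3 arrays of both groups having the same value. This gave a log2 fold change of 0.09 (95% interval -0.06 to 0.25, adjusted p = 0.443 by limma). HSD17B2 and HSD17B6, both oxidative enzymes with opposite effects on active androgen, thus had values of 0.09 and 1.11 on the log2 fold scale. The difference between these values was not tested.

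HSD17B11, a short-chain dehydrogenase of lipid droplets that can oxidize androstanediol, was the member with the lowest log2 fold change. Its log2 level was 7.98, 8.30, 8.18 and 8.52 in CSC, against 8.30, 8.50 and 8.51 in DU145 cells. The highest CSC array was level with the highest DU145 array, and the lowest value was that of CSC array 1. Its log2 fold change was -0.19 (95% interval -0.52 to 0.14, adjusted p = 0.472 by limma), so a decrease beyond 0.52 lies outside the interval.

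HSD3B1 makes androstenedione from the adrenal precursor dehydroepiandrosterone. The arrays gave log2 levels of 3.78, 3.67, 3.86 and 3.88 in CSC, against 3.67, 3.64 and 3.12 in DU145 cells. CSC array 2 and DU145 array 1 held the same value to 2 decimals, and DU145 array 3 was again the lowest. The mean was 3.80 ± 0.09 (SD, n = 4) in CSC and 3.48 ± 0.31 (SD, n = 3) in DU145 cells, a log2 fold change of 0.32 (95% interval -0.04 to 0.68, adjusted p = 0.297 by limma). Without DU145 array 3 the log2 fold change was 0.14.

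STS, the sulfatase that removes the sulfate from dehydroepiandrosterone sulfate and estrone sulfate, varied as much within the groups as between them. Its log2 level was 5.48, 5.86, 6.13 and 5.97 in CSC, against 5.79, 5.44 and 6.0 in DU145 cells. DU145 array 2 and CSC array 1 were low and the ranges overlapped almost fully. CSC and DU145 cells differed by a log2 fold change of 0.12 (95% interval -0.35 to 0.59, adjusted p = 0.751 by limma), and it was -0.03 without DU145 array 2.

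HSD17B4 is the bifunctional enzyme of peroxisomal fatty acid oxidation, which also oxidizes estradiol. It had log2 levels of 9.04, 9.38, 9.14 and 9.82 in CSC, against 9.31, 9.54 and 9.38 in DU145 cells. The CSC arrays spanned 0.78 and the DU145 arrays 0.23, and the DU145 values fell inside the CSC range. This left a log2 fold change of -0.06 (95% interval -0.54 to 0.41, adjusted p = 0.878 by limma). HSD17B4 and HSD17B11 shared an order among the CSC arrays, with array 1 the lowest, then array 3, array 2 and array 4.

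HSD17B8 is a subunit of a ketoacyl reductase of mitochondrial fatty acid synthesis, where it works with CBR4. On the log2 scale it was at 4.41, 4.35, 4.58 and 4.35 in CSC, against 4.27, 4.35 and 4.35 in DU145 cells. The arrays lay within 0.31 of each other, and the log2 fold change was 0.10 (95% interval -0.09 to 0.29, adjusted p = 0.506 by limma). The intervals of the 6 members other than HSD17B6 all held 0 and none reached a log2 fold change of 1 in either direction. Among them, HSD17B2, HSD3B1 and HSD17B8 had means below 4.92 in both groups, the level that 95% of the olfactory receptor genes did not exceed. For these low signals a difference between the groups could have been missed in spite of the narrow intervals.

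**Figure D3:**
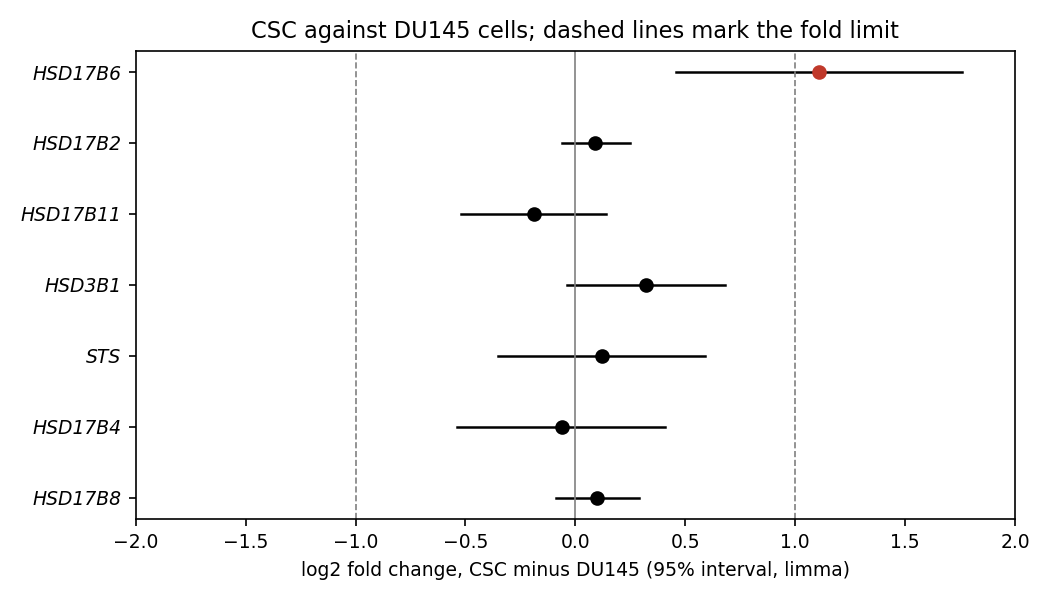
The log2 fold change, CSC minus DU145 (horizontal axis), of each measured member is plotted as a point with its 95% interval from limma, with the fold limit of 1 in each direction as dashed lines. HSD17B6, in red, is the 1 gene whose interval (0.46 to 1.76) lies above 0, and the intervals of the other 6 genes include 0 and stay inside the fold limit.

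Across the 7 members, CSC array 4 held the highest value of 4 genes, CSC array 3 of 2 and CSC array 1 of 1. The lowest values were spread over more arrays, namely DU145 arrays 1 and 3 and CSC array 1 with 2 genes each and DU145 array 2 with 1. No DU145 array was the highest for any member.

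The genes whose pattern over the 7 arrays was most like that of HSD17B6, by the root mean square difference after each gene's mean was subtracted, were GTF2B (0.168 on the log2 scale), LINC01260 (0.173), LTB (0.19) and LINC00471 (0.204). GTF2B is a general transcription factor of RNA polymerase II. It differed by 1.13 on the log2 scale (adjusted p = 0.0535 by limma), and its lowest value, 6.70, was on DU145 array 3 as well. LTB, a membrane-bound cytokine of the tumor necrosis factor family, had a log2 fold change of 1.06 and passed the test (adjusted p = 0.0432). For HSD17B11 the nearest patterns were those of WWC2 (0.0242), TRIP12 (0.0542), PARP1 (0.0543) and DNAJC10 (0.0574), with log2 fold changes of -0.19, -0.24, -0.15 and -0.28 and no adjusted p under 0.344. Both sets were chosen by likeness over all 7 arrays, the difference between the groups included. Fold changes and low arrays close to those of the member therefore follow from the choice and are no separate result.

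The members lie on 7 different chromosomes in the RefSeq gene order (GRCh38.p14), namely 1, 4, 5, 6, 12, 16 and X. The nearest protein-coding gene with a row of its own was read on each side of every member, a set chosen by position after the members' values had been seen. None of these 14 neighbors passed the test by limma, none was past the fold limit at an unadjusted p of 0.05, and their log2 fold changes ran from 0.01 to 0.80. HSD17B6 on chromosome 12 has SDR9C7, a related short-chain dehydrogenase, on one side. The log2 level of SDR9C7 was 5.95, 6.22, 5.79 and 5.06 in CSC, against 5.78, 5.61 and 5.59 in DU145 cells, a log2 fold change of 0.10. PRIM1, a DNA primase subunit on the other side, had a log2 fold change of 0.24. The difference at HSD17B6 was thus larger than that of its measured neighbors, although no test compared them. PNPLA4, a lipase-like gene beside STS, had the largest value, 0.80 (adjusted p = 0.0608 by limma).

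Among the other enzymes of steroid conversion, AKR1C3 was the 1 gene that passed. Of 7 measured HSD17B and HSD17B-like genes outside the list, none passed and the median log2 fold change was 0.05. The farthest was HSD17B10, a mitochondrial dehydrogenase of isoleucine breakdown, at 0.29 (adjusted p = 0.566 by limma). HSD17B3, the enzyme that makes testosterone in the testis, had 3.55, 3.57, 3.57 and 3.69 in CSC, against 3.57, 3.57 and 3.48 in DU145 cells on the log2 scale. SRD5A2, the main steroid reductase of the normal prostate, was at 4.21 on all arrays of both groups. HSD17B3 and SRD5A2 were both below 4.92, the level that 95% of the olfactory receptor genes did not exceed. These are low signals, and a difference between the groups could have been missed.

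Of 7 other steroid reductases and hydroxysteroid dehydrogenases, 1 rose and 6 did not pass (median log2 fold change 0.13). This was AKR1C3, which reduces androstenedione to testosterone. Its log2 level was 6.35, 8.20, 8.20 and 8.82 in CSC, against 3.52, 3.80 and 3.71 in DU145 cells. The log2 fold change was 4.21, with a standard error of 0.56 and an adjusted p of 0.0263 by limma. The DU145 mean of 3.68 was below 4.92, the level that 95% of the olfactory receptor genes did not exceed, so the DU145 side is a low signal and the size of the fold is uncertain. The groups did not overlap, with CSC array 1 the lowest of the CSC arrays. AKR1C3 passed in 2 of the 7 fits that left out an array, those without CSC array 1 or 4, and over the 7 fits its adjusted p lay between 0.00251 and 0.104. In 3 of the 7 genes every CSC array was above every DU145 array, which held for 10.8% of all rows. These were AKR1C3 and, named after their values were seen, HSD11B1L and H6PD. H6PD supplies the cofactor of a glucocorticoid-forming enzyme and had a log2 fold change of 0.55 (95% interval 0.06 to 1.05, adjusted p = 0.217). Of 11 retinol dehydrogenases and SDR9C enzymes, short-chain dehydrogenases like HSD17B6 though not all its close kin, none passed (median 0.13). RDH10, which oxidizes retinol, had the largest log2 fold change, 0.79 (adjusted p = 0.142). RDH16, an SDR9C enzyme that sits near HSD17B6, had -0.08, with low means of 3.71 in CSC and 3.79 in DU145 cells.

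None of 7 measured genes of cholesterol import and steroidogenesis passed (median log2 fold change 0.16). CYP17A1, which makes the androgen precursors, and CYP19A1, the aromatase, had 0.04 and 0.02. These were low signals. The CYP17A1 means of 4.99 in CSC and 4.95 in DU145 cells were near the olfactory level of 4.92. Those of CYP19A1, 2.94 and 2.92, were below it. CYB5A, the cytochrome that aids the androgen-forming step of CYP17A1, stood apart. Its log2 level was 8.31, 9.71, 9.44 and 9.88 in CSC, against 7.47, 7.23 and 7.14 in DU145 cells, and the groups did not overlap. Its log2 fold change of 2.06 (standard error 0.38) had an adjusted p of 0.0551 by limma and so missed the limit. It passed after the arrays were centred on their medians, after a further quantile normalization, with array weights, among the rows above the median level and without CSC array 1.

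Of the genes that attach sulfate to steroids, none of 5 measured passed (median log2 fold change -0.08), and PAPSS1, which makes the sulfate donor, had the largest absolute value, -0.31 (adjusted p = 0.462 by limma). None of 6 genes for sulfatase activation and uptake of steroid sulfates passed (median 0.11). The transporter SLCO4A1 differed most, by 1.0 on the log2 scale (adjusted p = 0.158), with 7.87, 8.48, 8.86 and 8.66 in CSC, against 7.02, 7.41 and 7.97 in DU145 cells, so that 1 DU145 array lay above the lowest CSC array.

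None of 6 measured steroid receptors passed (median log2 fold change 0.02). The glucocorticoid receptor NR3C1 had a log2 fold change of -0.02 (95% interval -0.20 to 0.16), and the mineralocorticoid receptor NR3C2 had the largest, 0.13 (adjusted p = 0.349 by limma). Of 7 luminal prostate and androgen-regulated markers none passed, with log2 means between 3.21 and 6.14 in CSC and between 3.09 and 6.29 in DU145 cells. KLK3, which encodes prostate-specific antigen, was among them with a log2 fold change of -0.04. Its means of 4.91 in CSC and 4.95 in DU145 cells were near the olfactory level of 4.92.

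The pathways in which HSD17B4, HSD17B8, HSD17B12 and SRD5A3 chiefly work were read as well. Of 12 genes of peroxisomal oxidation, the pathway of HSD17B4, 1 rose and 11 did not pass (median log2 fold change 0.05). PHYH, which starts the breakdown of phytanic acid, had 7.49, 7.64, 7.09 and 7.47 in CSC, against 5.98, 6.11 and 6.35 in DU145 cells. This is a log2 fold change of 1.27 with an adjusted p of 0.0216 by limma. PHYH did not pass without CSC array 2, DU145 array 1 or DU145 array 2, and over the 7 fits that left out an array its adjusted p lay between 0.0219 and 0.0939. CROT, a carnitine acyltransferase picked out here after its values were seen, had -0.91 with an adjusted p of 0.0224 and was within the fold limit. Every CSC array was above every DU145 array for 4 of the 12 genes and below for 1, CROT. Over all rows these shares were 10.8% and 6.13%. Also above in this way were 2 of 11 retinol dehydrogenases and SDR9C enzymes and 2 of 6 genes of mitochondrial fatty acid synthesis. Apart from the steroid reductases and dehydrogenases given before, the remaining pathways had at most 1 such gene each. In peroxisomal oxidation, the 3 genes above beside PHYH, named after their values were seen, were ECH1 (log2 fold change 1.02, adjusted p = 0.163), EHHADH (0.73, adjusted p = 0.13) and ACOX2 (0.60, adjusted p = 0.116). None of these 3 passed.

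Of 8 measured genes of fatty acid elongation, the pathway of HSD17B12, 1 fell and 7 did not pass (median 0.05). This was ELOVL2, an elongase of very long polyunsaturated chains, at 4.91, 4.66, 5.25 and 5.12 in CSC, against 8.73, 8.79 and 8.62 in DU145 cells. Its log2 fold change was -3.73 (adjusted p = 0.000332 by limma). The CSC mean of 4.99 was near the olfactory level of 4.92, so the size of the fold is uncertain. ELOVL2 passed in each of the 7 fits that left out an array (adjusted p from 0.00209 to 0.00746), though not with the replicate block. Of 11 genes of dolichol synthesis and early N-glycan assembly, the pathway of SRD5A3, none passed (median 0.25), the largest being DOLPP1 at 0.62 (adjusted p = 0.196). Of 6 genes of mitochondrial fatty acid synthesis, the pathway of HSD17B8, none passed (median 0.34). NDUFAB1, the acyl carrier protein, had 0.74 as log2 fold change (adjusted p = 0.0277), which is within the fold limit.

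**Figure D4:**
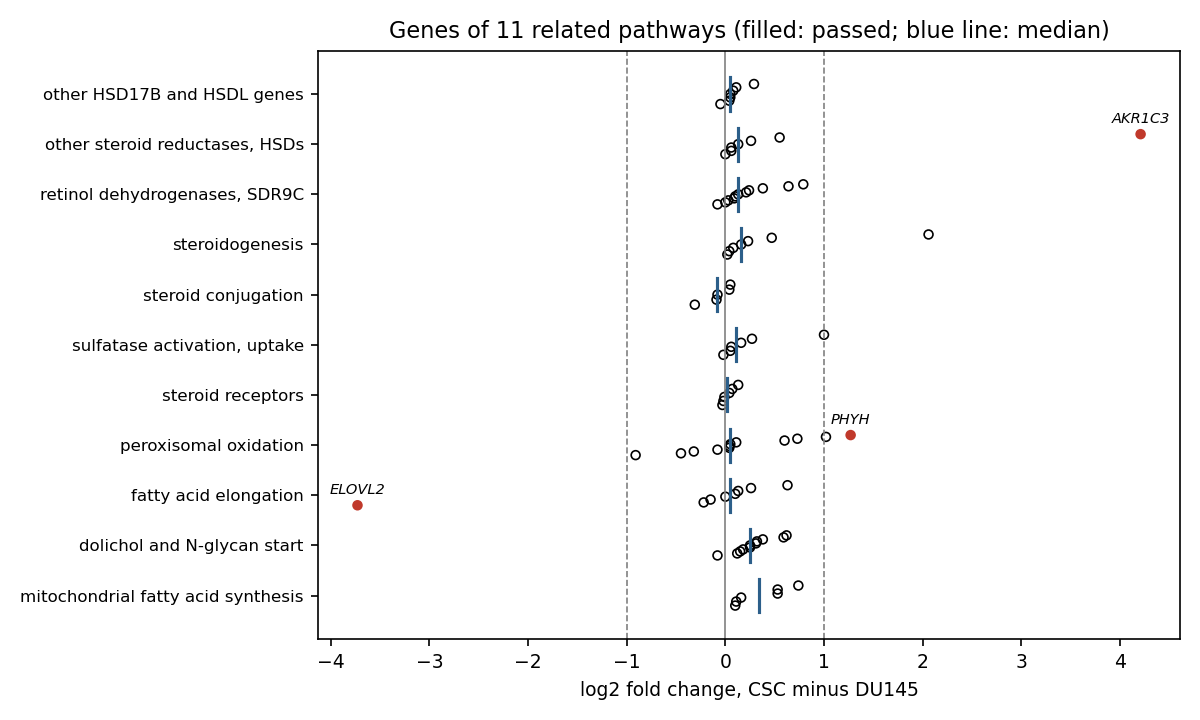
The log2 fold change, CSC minus DU145 (horizontal axis), of each measured gene is plotted for 11 related pathways, 1 per line, with filled red points for genes that passed the test, open points for the others and a blue line at the median of the pathway. AKR1C3 at 4.21 and PHYH at 1.27 passed on the higher side and ELOVL2 at -3.73 on the lower side, while the medians lie between -0.08 and 0.34.

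Taken over the 11 pathways, 3 of 86 measured genes passed, 2 higher and 1 lower in CSC, which is 3.49%, where 1.43% of all genes with a row of their own passed. At an unadjusted p of 0.05 with the fold limit there were 5 higher and 1 lower among the 86 genes, where 4.35% of all rows met these limits, 399 higher and 558 lower.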

How the data were processed

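RNA of 4 CSC and 3 DU145 samples was measured on Affymetrix human exon arrays, 1 array each. The deposited log2 values are those the authors computed in oneChannelGUI, which summarized the probes of a gene by Robust Multichip Average after a quantile sketch made the arrays alike. The table holds 22011 rows, with values from 0.24 to 13.79. The study removed probe sets without expression or change for its own lists, and the sources used here do not say whether this touched the deposited table, nor the genome build. Detection p-values were not used. The number of arrays limits the precision.

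A table of platform symbols gave 1 symbol for 14432 rows, several for 2408 and none for 5171. Genes were named from rows with 1 symbol only, by the brightest row, and 28 such rows kept the platform's symbol because the RefSeq gene table holds no match. RefSeq promoter sequences in the tables used here did not include HSD17B6 or HSD17B2.

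All 7 arrays entered a linear model with condition as the only term (limma 3.58.1, R 4.3.3), fitted on all rows with Benjamini-Hochberg adjustment over them. The limits for a row to pass were 0.05 for the adjusted p and 1 for the absolute log2 fold change. All adjusted p-values come from limma except where stated. An exact permutation test over the 35 ways to divide the arrays was added for single genes. Simulated data with known changes served to check the fit. No set test was run, and lists are given by counts and medians.

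The members and the lists, 11 pathways and 7 sets of markers, were chosen with earlier results of these data known. The text names every member, up to 3 genes that passed of each pathway or otherwise the 1 with the largest absolute change, and the 4 genes most like the members with the largest and smallest change. Other genes are named for background. Of the marker sets, 2 of 5 epithelial markers passed, both higher in CSC, and none of 7 luminal, 5 neuroendocrine, 6 fibroblast, 4 leukocyte, 4 endothelial or 2 sort markers passed.

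The labels number replicates alike in CSC and DU145 cells. The correlation of deviations of same-numbered arrays was 0.07, -0.01 and 0.05, so pairs by number did not enter the main fit. Among the alternatives, the replicate block used them. Between any pair of arrays, 6.43% to 10.5% of rows held identical values. Alternatives covered scaling, moderation, array weights, a replicate block, a filter on dim rows, the methods' t-test, thresholds and each array left out. Exon-level values were not analysed here.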

Additional observations from a re-analysis of the deposited data

Results flagged for a closer look

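The mineralocorticoid receptor NR3C2 had log2 levels of 4.55, 4.42, 4.42 and 4.42 in CSC, against 4.36, 4.37 and 4.25 in DU145 cells. CSC array 1 was far from the others of its group, whose values were identical, so its gap was the whole range (ratio 1). This was 1 of 20 genes examined in this way, and chance alone gives about as many.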

How the results depend on the processing

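No member passed under any alternative fit. The 1 member past the limits at an unadjusted p of 0.05 or an adjusted p of 0.10 was HSD17B6. The log2 fold change of HSD17B6 ran from 0.79 to 1.32 over 13 settings, with adjusted p-values from 0.07 to 0.227. The filter on dim rows kept 2 members, HSD17B4 and HSD17B11, and gave no value for HSD17B6. Leaving out 1 array turned the direction of HSD17B4 (-0.22 to 0.04) and of STS (-0.03 to 0.25). All members had 1 row, so the alternatives on rows could not be run. The cause of these changes was not tested.

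The rows that passed numbered 159 higher and 127 lower in CSC. With each array left out they ran from 31 to 185 higher and from 25 to 117 lower. They were 192 higher and 221 lower after median centring and 201 and 229 after quantile normalization, so that the share of higher rows was 46.5% and 46.7%, against 55.6% as reported. The other counts were 297 higher and 198 lower with array weights, 26 and 17 by the methods' t-test, 270 higher with no fold limit, 399 and 558 at an unadjusted p, and 297 and 270 at an adjusted p of 0.10. With the replicate block, to which CSC array 4 adds nothing, 0 rows passed higher and 0 lower, so 0 pathway genes did, while 999 rows and 1 member passed at an unadjusted p with the fold limit. The block changed no call of a member, and HSD17B6 had a log2 fold change of 1.0. Pathway genes that passed higher numbered 0 to 3 with an array left out and 0 by the methods' t-test.

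The pathway medians moved by more than the spread between arrays as follows. After median centring they were -0.02 for the other HSD17B genes, 0.06 for retinol dehydrogenases, -0.16 for conjugation, 0.04 for sulfatase activation and uptake, -0.06 for receptors and -0.03 for peroxisomal oxidation. After quantile normalization they were 0.05 for retinol dehydrogenases, 0.06 for sulfatase activation and uptake and 0 for peroxisomal oxidation. With array weights and with the replicate block, they were 0.17 for retinol dehydrogenases and 0.03 for conjugation. Among rows above the median level they were 4.21 for the other steroid reductases and dehydrogenases (AKR1C3 alone), 0.24 for retinol dehydrogenases, 0.47 for steroidogenesis, -0.20 for conjugation, 0.58 for sulfatase activation and uptake, -0.02 for receptors and 0.53 for mitochondrial fatty acid synthesis. With 1 array left out they ran from 0.11 to 0.18 for retinol dehydrogenases, 0.01 to 0.17 for sulfatase activation and uptake, -0.09 to 0.03 for conjugation and -0.08 to 0.11 for elongation. Of 326 alternative values, 259 kept their direction and side of the limit or moved by less than the spread.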
